A study of Mus musculus with 4 samples.

Results

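The transcripts of 10 amino acid transporter genes were followed in mouse pachytene spermatocytes cultured with or without an inhibitor of the ATR kinase. The genes were Slc3a2, which encodes the CD98 heavy chain, the light chain genes Slc7a5, Slc7a6, Slc7a7, Slc7a8 and Slc7a11, the cationic carrier genes Slc7a1 and Slc7a3, and the neutral amino acid carrier genes Slc1a5 and Slc38a2. They were found by symbol, and all 10 were present among the 23420 genes with a symbol. They were chosen because Slc3a2 was lower in the inhibitor-treated libraries, so the values below describe these libraries and carry no test for the 10 genes.

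The cells were pachytene spermatocytes isolated by FACS from testes of adult wild-type C57BL/6 mice of 23 weeks of age. Ctrl cells were kept with DMSO, the solvent, and AZ20 cells with 10 μM of the ATR inhibitor AZ20, each for 24 h. Each condition had 2 libraries of 150-bp paired reads. Both conditions were set up from the cells of each mouse, so libraries of the same replicate number form a pair, and nothing in the labels tells how replicate 1 and replicate 2 differ beyond their number. The labels give a culture temperature of 34 °C, and the methods give another. Reads assigned to genes numbered 13858272 to 15729090 per Ctrl library and 18404522 to 20094702 per AZ20 library. Levels are given as TPM, the length-corrected share of a transcript in its library, so that different genes can be set side by side. Changes are AZ20 minus Ctrl on the scale of log2(TPM + 1), which understates the change of low genes. An exact permutation test of a single value in these 4 libraries that ignores the pairs cannot go below a two-sided p of 0.333. A permutation test that keeps the pairs has a higher floor.

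The CD98 heavy chain is a membrane glycoprotein that does not carry amino acids itself. It is joined by a disulfide bond to a light chain, which forms the transport path, and it is needed for the light chain to reach the cell surface. The light chains differ in what they exchange: large neutral amino acids for Slc7a5 (LAT1) and Slc7a8 (LAT2), cationic against neutral amino acids for Slc7a6 (y+LAT2) and Slc7a7 (y+LAT1), and cystine against glutamate for Slc7a11 (xCT). Slc7a1 (CAT-1) and Slc7a3 (CAT-3) carry arginine and lysine without a heavy chain, and Slc1a5 (ASCT2) and Slc38a2 (SNAT2) carry small neutral amino acids such as glutamine with sodium. Several of these genes are known targets of the amino acid response, in which the transcription factor ATF4 binds a composite element in the DNA of its targets. In the testis, spermatocytes lie behind the barrier formed by Sertoli cells and receive nutrients through these cells.

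Promoter sequence was found for 7 of the 10 genes in RefSeq (assembly GRCm38.p6), with 13 windows of 250 bases before and 50 bases after an annotated start. The 250 bases before the start are given for the heavy chain gene, on which the comparison turns, and for Slc7a11, the gene whose window held the ATF4 composite element as an inverted pair. Both are written 5′ to 3′ on the strand of the gene, which is the minus strand for both, and capitals mark matches to the ATF4 composite element (TGATGNAA, on either strand). The Slc3a2 sequence is chr19:8713898-8714147 and the Slc7a11 sequence is chr3:50443614-50443863.
Slc3a2: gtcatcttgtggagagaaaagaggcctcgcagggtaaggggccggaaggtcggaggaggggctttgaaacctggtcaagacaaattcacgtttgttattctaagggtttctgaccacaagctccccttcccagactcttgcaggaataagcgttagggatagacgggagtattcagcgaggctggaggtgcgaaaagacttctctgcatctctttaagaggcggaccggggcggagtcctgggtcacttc
Slc7a11: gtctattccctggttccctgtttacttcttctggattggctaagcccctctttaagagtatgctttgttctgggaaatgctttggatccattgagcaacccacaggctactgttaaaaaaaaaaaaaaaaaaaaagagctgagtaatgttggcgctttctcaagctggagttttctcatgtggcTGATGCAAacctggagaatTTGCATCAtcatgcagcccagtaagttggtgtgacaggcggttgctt

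No capitals stand in the Slc3a2 sequence, since the composite element was not found in its window on either strand. In Slc7a11 it lay at 66 to 59 bases before the start on the strand of the gene and at 47 to 40 bases before the start on the other strand. The window of Slc3a2 lies inside the gene as GENCODE draws it: its start is 9472 bases downstream of the first base of the longest model, and exons of 2 of the 9 annotated transcripts reach into the 250 bases. The start of Slc7a11 lies 1 base from the GENCODE edge. The 250 bases before the start held 53.6% G and C for Slc3a2 and 43.2% for Slc7a11, against a median of 52.4% over all promoters.

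Among all 32851 promoters of the same length, 3.97% held the composite element on either strand. Of the 7 genes, 2 held it, Slc7a11 and Slc7a7, in 3 of the 13 windows. In Slc7a7, which has 5 annotated promoters here, it was found in 2 of them, at 141 to 134 bases before the start and across the start in one, and at 243 to 236 bases before the start in the other. The NF-Y box (CCAAT) was held by 37.4% of all promoters and by those of Slc7a11 and Slc7a1, in both only on the strand opposite to the gene. The core of the antioxidant response element (TGACNNNGC), bound by NRF2, was held by 12.4% of all promoters and by those of Slc7a1, Slc7a6 and Slc38a2, in Slc7a1 only on the opposite strand. In the single window of Slc3a2, none of the 3 motifs was found. Of the 9 annotated transcripts of this gene, 4 span that window. The bases before the first base of the longest Slc3a2 model, 9472 bases upstream, were not searched. Whether a motif lies there was thus not tested. By window, the NF-Y box was in 2 of the 13 and the antioxidant response element core in 4. The shares are of single promoters, while a gene with several windows can hold a motif in any of them. Neighbouring windows of Slc7a7 and of Slc7a6 share bases, so a motif can be counted in more than 1 window of a gene. The Slc7a7 match across a start and that at 243 to 236 bases before another start are the same bases. Each match is of letters only.

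**Figure D1:**
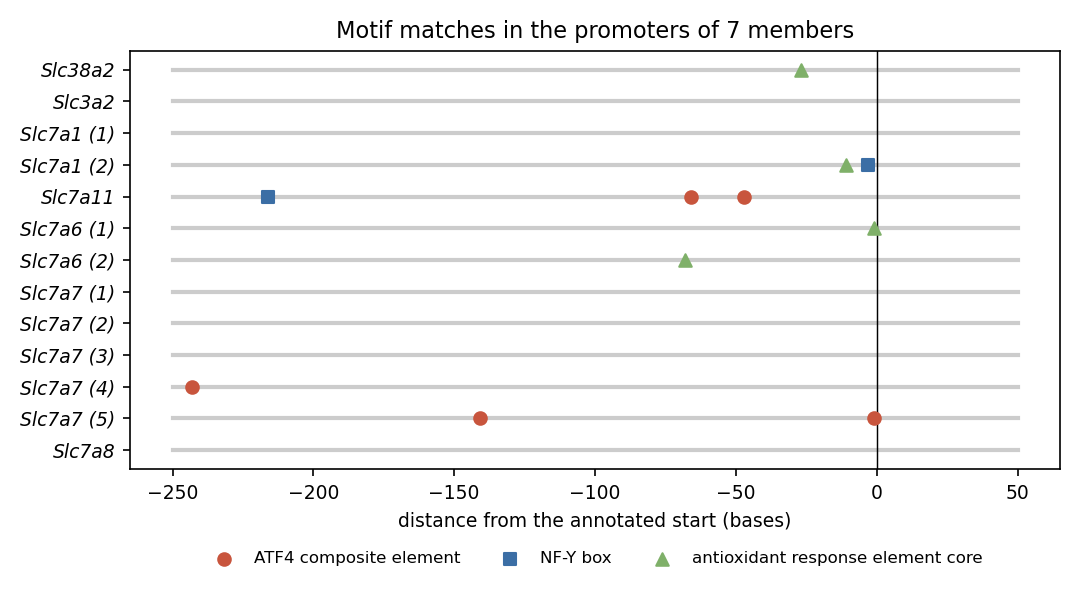
Positions of matches to 3 motifs in the 13 RefSeq promoter windows of 7 genes, with the distance from the annotated start in bases on the horizontal axis and 1 row for each window (numbered where a gene has more than 1). The windows of Slc3a2 and Slc7a8 carry no symbol, and Slc7a11 carries 2 matches to the ATF4 composite element close together before its start.

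Slc3a2 was the highest of the 10 genes in every library and was lower in both AZ20 libraries. Its level was 108 and 94.5 TPM in Ctrl (3215 and 3225 reads) and 44.0 and 47.5 TPM in AZ20 (1892 and 1845 reads). Both AZ20 libraries lay under both Ctrl libraries, and the difference was larger than the spread between replicates in either condition. The group means were 101 ± 9.33 TPM in Ctrl and 45.8 ± 2.503 TPM in AZ20 (SD, n = 2 each), a 2.21-fold difference, and the change on the log2 scale was -1.12 over both pairs, -1.27 in replicate 1 and -0.98 in replicate 2. In Ctrl it stood at rank 1483 of 10316 expressed genes, with 85.6% of expressed genes below it. Expressed genes are those with a mean above 1 TPM in Ctrl or AZ20. The gene lies on chromosome 19 from 8706882 to 8723369 on the minus strand (GRCm38). These are whole-library measurements, in which fewer cells of a type and less RNA per cell cannot be told apart.

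**Figure D2:**
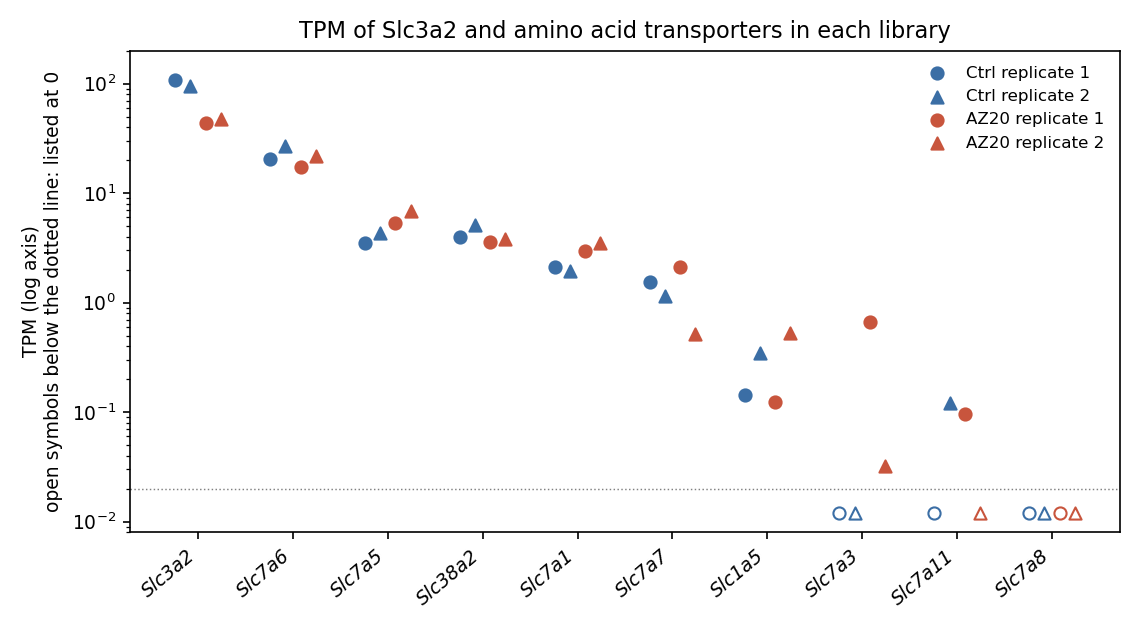
TPM of the 10 genes in each library on a log axis, with Ctrl in blue, AZ20 in red, circles for replicate 1 and triangles for replicate 2, and open symbols under the dotted line for genes listed at 0. Slc3a2 stands at the top, with its AZ20 points at 44.0 and 47.5 TPM under its Ctrl points at 94.5 and 108 TPM, while the points of Slc7a6 overlap between the conditions and those of Slc7a5 and Slc7a1 are higher in AZ20.

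Of the 5 light chain genes, Slc7a6 was by far the highest, Slc7a5 came next, Slc7a7 was low, and Slc7a11 and Slc7a8 were at or near 0. Slc7a6, on chromosome 8 (106168219 to 106198714, plus strand), had 20.5 and 26.8 TPM in Ctrl (773 and 1155 reads) and 17.5 and 21.7 TPM in AZ20 (950 and 1060 reads). The conditions overlapped, with AZ20 replicate 2 above Ctrl replicate 1, although AZ20 was the lower library in each pair, by 0.22 and 0.30 on the log2 scale. Its mean was 23.7 ± 4.46 TPM in Ctrl and 19.6 ± 2.93 TPM in AZ20 (SD, n = 2 each).

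Slc7a5, the light chain that imports leucine and other large neutral amino acids, was higher in both AZ20 libraries. It lies on the same chromosome (121881146 to 121907686, minus strand) and had 3.50 and 4.34 TPM in Ctrl (124 and 176 reads) against 5.33 and 6.88 TPM in AZ20 (272 and 317 reads). The conditions did not overlap, and the change on the log2 scale was 0.53 over both pairs, 0.49 in replicate 1 and 0.56 in replicate 2. The means were 3.92 ± 0.598 and 6.10 ± 1.10 TPM (SD, n = 2 each), a ratio of AZ20 to Ctrl of 1.56. Its direction was thus opposite to that of the heavy chain gene.

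Slc7a7, which exports cationic amino acids in exchange for neutral ones, went opposite ways in the 2 pairs. Its level was 1.54 and 1.14 TPM in Ctrl (39 and 33 reads) and 2.11 and 0.517 TPM in AZ20 (77 and 17 reads), so the AZ20 libraries were the highest and the lowest of the 4. The 3′ end of this gene (chromosome 14, 54369442 to 54420068, minus strand) overlaps the end of Oxa1l on the other strand, and strand-specific counting is not stated, so reads of the shared stretch cannot be told apart. Slc7a11 (chromosome 3, 50364936 to 50499087, minus strand), the cystine importer that feeds glutathione synthesis, had 13 reads in Ctrl replicate 2, 13 in AZ20 replicate 1 and 0 in the other two libraries, or at most 0.122 TPM. Slc7a8 (chromosome 14, 54722215 to 54781886, minus strand) had 0 reads in all 4 libraries, which allows up to 3 reads in each library (counting error only).

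The summed level of the light chain transcripts overlapped between the conditions, while that of the heavy chain transcript did not. The sum over the 5 light chain genes was 25.6 and 32.5 TPM in Ctrl and 25.1 and 29.0 TPM in AZ20, with means of 29.0 ± 4.86 and 27.1 ± 2.83 TPM (SD, n = 2 each). The ratio of Slc3a2 to this sum was 4.21 and 2.91 in Ctrl and 1.76 and 1.64 in AZ20. Heavy chain transcripts thus exceeded light chain transcripts in every library, and both AZ20 ratios were lower than both Ctrl ratios. The mean ratio was 3.56 ± 0.918 in Ctrl and 1.70 ± 0.0847 in AZ20 (SD, n = 2 each). Because the genes were chosen on the level of Slc3a2, the lower ratio restates that choice and carries no test.

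**Figure D3:**
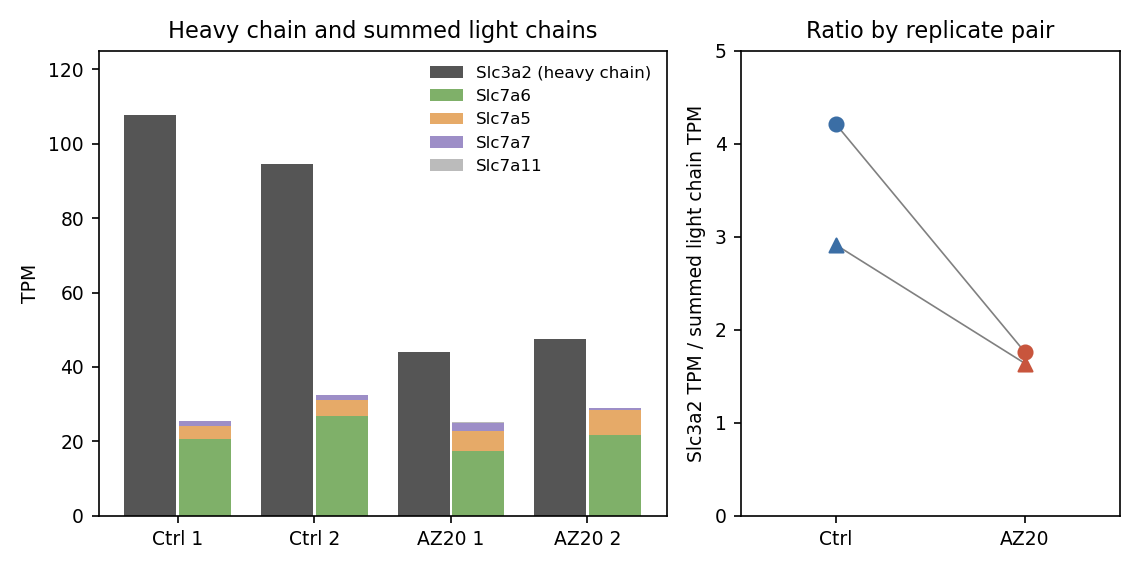
Left, TPM of Slc3a2 (dark bars) beside the stacked TPM of the light chain genes in each library. Right, the ratio of the Slc3a2 TPM to the summed light chain TPM, with lines joining libraries of the same replicate number; it is 4.21 and 2.91 in Ctrl and 1.76 and 1.64 in AZ20.

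Within the light chains the make-up also differed between the conditions. Slc7a6 held 80.3% and 82.7% of the light chain TPM in Ctrl and 69.9% and 74.5% in AZ20, and Slc7a5 held 13.7% and 13.4% in Ctrl and 21.3% and 23.7% in AZ20. The ratio of Slc7a6 to Slc7a5 TPM was 5.87 and 6.18 in Ctrl and 3.29 and 3.15 in AZ20, so the replicates of a condition lay close together and the conditions apart. Its mean was 6.03 ± 0.219 in Ctrl and 3.22 ± 0.0991 in AZ20 (SD, n = 2 each). As a ratio of 2 genes within a library, it does not depend on how libraries are scaled to each other. This ratio was not tested, and of its 2 genes Slc7a6 overlapped between the conditions while Slc7a5 did not. Among single expressed genes, both AZ20 libraries lay above both Ctrl libraries for 26.4% and below them for 11.7%.

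Of the cationic carriers, which work without the heavy chain, Slc7a1 was higher in both AZ20 libraries and Slc7a3 was near 0. Slc7a1 (chromosome 5, 148327410 to 148399904, minus strand), the main arginine importer of many cells, had 2.11 and 1.93 TPM in Ctrl (153 and 160 reads) and 2.98 and 3.51 TPM in AZ20 (311 and 331 reads). The conditions did not overlap, and the mean was 2.02 ± 0.127 TPM in Ctrl and 3.25 ± 0.378 TPM in AZ20 (SD, n = 2 each), a ratio of AZ20 to Ctrl of 1.61. The change on the log2 scale was 0.49 over both pairs, 0.35 in replicate 1 and 0.62 in replicate 2.

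Slc7a3 is the only X-linked gene of the 10 (chromosome X, 101079146 to 101090452, minus strand). The X chromosome is transcriptionally silenced in pachytene spermatocytes, and its silencing is what the study examined. The gene had 0 reads in both Ctrl libraries, 23 reads (0.667 TPM) in AZ20 replicate 1 and 1 read (0.0321 TPM) in AZ20 replicate 2. Set against a limit of 3 reads over the Ctrl group, the 24 pooled AZ20 reads were 6.15-fold higher for the same depth. This figure leaves out the counting error of the AZ20 reads, so it is not a lower bound. It also rests on 1 library, since 23 of the 24 reads came from AZ20 replicate 1, and does not describe AZ20 replicate 2. Part of the gene overlaps Snx12 on the same strand, which leaves the origin of reads in that stretch uncertain.

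Slc38a2 was lower in both AZ20 libraries by a small step, and Slc1a5 was near 0. Slc38a2 (chromosome 15, 96687392 to 96699728, minus strand), a sodium-driven importer whose transcript is known to rise in cells short of amino acids, had 4.004 and 5.10 TPM in Ctrl (187 and 272 reads) and 3.60 and 3.804 TPM in AZ20 (242 and 231 reads). The change on the log2 scale was -0.23, with -0.12 and -0.34 in the pairs, and the nearest libraries of the conditions, at 3.804 and 4.004 TPM, lay closer than the Ctrl replicates did to each other. The means were 4.55 ± 0.771 TPM in Ctrl and 3.70 ± 0.147 TPM in AZ20 (SD, n = 2 each). Slc1a5 (chromosome 7, 16781334 to 16798274, plus strand), a glutamine carrier that is high in many dividing cells, had 0.144 and 0.346 TPM in Ctrl (4 and 11 reads) and 0.125 and 0.525 TPM in AZ20 (5 and 19 reads), and the conditions overlapped.

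Set in order of TPM, Slc3a2 came first and Slc7a6 second in each library. Slc38a2 was the third and Slc7a5 the fourth in both Ctrl libraries, where their ranges overlapped (4.004 to 5.10 and 3.50 to 4.34 TPM). In both AZ20 libraries they changed places, and their ranges did not overlap (3.60 to 3.804 and 5.33 to 6.88 TPM). Slc7a1 was the fifth throughout, and Slc7a7 followed it except in AZ20 replicate 2, where Slc1a5 was marginally above it (0.525 and 0.517 TPM). The order of the remaining genes rests on at most 24 reads summed over the libraries of a condition and is not resolved.

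Of the 10 genes, 6 had a mean above 1 TPM in a condition and entered the fit over all expressed genes: Slc3a2, Slc7a5, Slc7a6, Slc7a7, Slc7a1 and Slc38a2. A gene was called where the limma adjusted p was under 0.05 and TPM + 1 differed by 2-fold or more. A low gene can thus differ by more than 2-fold in TPM and not be called. Of the 6 genes, 1 was called lower (Slc3a2) and the other 5 were not called, where 0.0485% of expressed genes were called lower and 2.28% higher. That call is part of how the genes were chosen. Both AZ20 libraries lay above both Ctrl libraries for 2 of the 6 (Slc7a5 and Slc7a1), where this held for 26.4% of expressed genes, and below them for 2 (Slc3a2 and Slc38a2), where it held for 11.7%. The median change of all 10316 genes was 0.07.

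**Figure D4:**
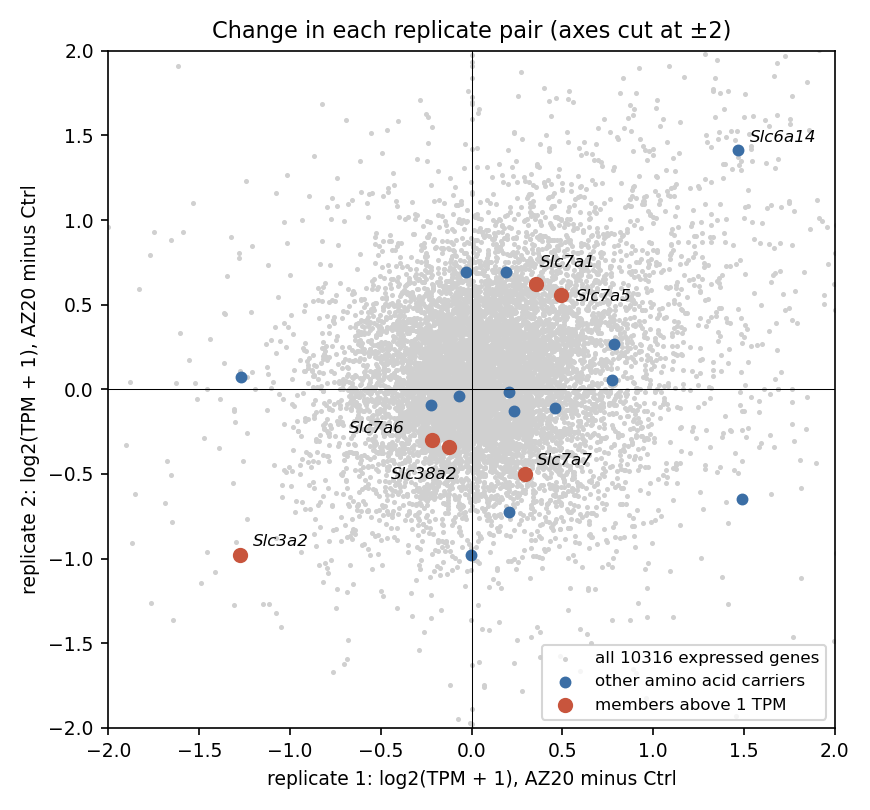
Change of log2(TPM + 1), AZ20 minus Ctrl, in replicate 1 (horizontal) and in replicate 2 (vertical) for all 10316 expressed genes (grey), 14 other amino acid carriers (blue) and the 6 genes above 1 TPM (red). The axes end at ±2, which leaves 296 genes outside; Slc3a2 lies at -1.27 and -0.98, Slc7a5 and Slc7a1 lie above 0 in both pairs, and Slc6a14 lies at the upper right.

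The other amino acid carriers of the mouse were taken by gene family. Of 55 found, 8 were at 0 in each of the 4 libraries and 14 had a mean above 1 TPM in a condition. Of these 14, limma called 0 higher and 0 lower. At an unadjusted p under 0.05, 1 was higher and 0 were lower, where 8.03% of all expressed genes were higher and 1.13% lower. With the replicate number as a block, 1 of the 14 was called higher and 0 lower, where 4.11% of expressed genes were called higher and 0.223% lower. Voom on the recovered reads also called 1 higher and 0 lower, where it called 2.17% of expressed genes higher and 0.00969% lower. The median change of the 14 was 0.13 on the log2 scale, from -0.60 for Slc1a4 to 1.44 for Slc6a14. For 3 of them both AZ20 libraries were higher than both Ctrl libraries (Slc38a1, Slc38a4 and Slc6a14) and for 2 both were lower (Slc25a38 and Slc25a44), against 26.4% and 11.7% of all expressed genes. Slc38a1 and Slc6a14 passed the filter only through their AZ20 means (1.15 and 1.75 TPM, against 0.618 and 0.0126 TPM in Ctrl). Their place among the higher genes is thus tied to the filter.

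Slc6a14, an X-linked carrier of neutral and cationic amino acids, had the largest change of the 14. It passed the filter only through its AZ20 mean, so its rank and its tests are not independent of the filter. It had 0 reads and 1 read in Ctrl and 88 and 78 reads in AZ20, or at most 0.025 TPM in Ctrl against 1.76 and 1.73 TPM in AZ20. Scaled to the depth of the libraries, the ratio of AZ20 to Ctrl was 128 (95% exact interval 22.6 to 5069, counting error only). The change on the log2 scale was 1.44 (SE 0.33), which did not pass the threshold (limma adjusted p = 0.117). With the replicate block, limma gave an adjusted p = 0.0203, and over all alternatives the limma adjusted p ran from 0.00259 to 0.431. The only other X-linked carrier among the 55, Slc38a5, had 0 reads in all 4 libraries.

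The other named carriers, the highest 3 of each family, either had means under 1 TPM or did not pass the test. In the SLC1 family of glutamate and neutral amino acid carriers, Slc1a4, a close relative of Slc1a5, had 4.67 and 2.61 TPM in Ctrl and 1.35 and 2.80 TPM in AZ20 (log2 change -0.60, limma adjusted p = 0.741), with overlapping conditions. Slc1a3, a glutamate carrier, had 2.92 and 2.39 TPM in Ctrl and 4.38 and 2.14 TPM in AZ20, and Slc1a7 had at most 0.893 TPM. In the SLC38 family, which holds Slc38a2, the lysosomal amino acid sensor gene Slc38a9 had 5.27 and 4.68 TPM in Ctrl and 6.24 and 4.62 TPM in AZ20. Slc38a4 had 3.63 and 3.11 TPM in Ctrl and 6.98 and 3.95 TPM in AZ20, with the AZ20 libraries further apart from each other than the nearest libraries of the conditions. Slc38a6 had 4.69 and 3.22 TPM in Ctrl and 3.88 and 2.96 TPM in AZ20.

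Among mitochondrial carriers, Slc25a44, which carries branched-chain amino acids, had the highest mean TPM of the 55 over the 4 libraries, with 9.38 and 9.49 TPM in Ctrl and 8.91 and 9.20 TPM in AZ20. Slc25a38, which carries glycine for heme synthesis, had 4.89 and 5.92 TPM in Ctrl and 4.87 and 2.51 TPM in AZ20. Slc25a2, an ornithine carrier, had 5.15 and 4.77 TPM in Ctrl and 9.50 and 4.98 TPM in AZ20. The lysosomal cystine exporter gene Ctns had 1.71 and 3.08 TPM in Ctrl and 2.12 and 1.47 TPM in AZ20, and the lysosomal cationic carrier gene Pqlc2 had 0.242 and 2.499 TPM in Ctrl and 2.49 and 1.23 TPM in AZ20. In the SLC6 family, Slc6a20a, a proline carrier, had 5.34 and 1.19 TPM in Ctrl and 5.19 and 2.53 TPM in AZ20, and Slc6a6, the taurine carrier, had at most 0.457 TPM. In all of these but Slc25a38 and Slc25a44 the conditions overlapped.

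The genes closest in kind to the heavy chain, the light chains and the cationic carriers were low. Slc3a1, the other heavy chain gene, whose product pairs with Slc7a9 and Slc7a13, had 0.387 and 0.414 TPM in Ctrl (9 and 11 reads) and 1.01 and 0.364 TPM in AZ20 (34 and 11 reads). Slc7a13 had 0.743 and 0.772 TPM in Ctrl and 0.548 and 0.0357 TPM in AZ20, and Slc7a9 had at most 0.350 TPM. The other cationic carrier genes Slc7a2, Slc7a4 and Slc7a14 had at most 0.153 TPM. In the families SLC36, SLC43 and SLC16, Slc36a4 had 1.53 TPM in Ctrl replicate 1 and at most 0.629 TPM elsewhere, Slc43a2 had 0.507 to 0.818 TPM and Slc16a10 had at most 0.423 TPM, and no gene of these families had a mean above 1 TPM in a condition.

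Over the 65 genes of both lists together, Slc3a2 alone held 54.3% and 50.9% of the summed TPM in Ctrl and 30.1% and 35.3% in AZ20. The sum without Slc3a2 was 90.5 and 91.3 TPM in Ctrl and 102 and 87.0 TPM in AZ20, and these ranges overlapped. The lower share in AZ20 thus restates the choice of the genes on the level of Slc3a2 and carries no test.

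On chromosome 19 the first base of the longest Slc3a2 model lies 117 bases from that of Snhg1, which runs the other way (8723487 to 8726326, plus strand, RefSeq) and encodes a noncoding RNA that hosts small nucleolar RNAs in its introns. Snhg1 had 96.4 and 106 TPM in Ctrl and 271.6 and 272.0 TPM in AZ20. The ratio of Snhg1 to Slc3a2 TPM was 0.895 and 1.12 in Ctrl and 6.17 and 5.72 in AZ20, so the pair of genes was at like levels in Ctrl and far apart in AZ20, with Snhg1 the higher. Because the genes were chosen on the level of Slc3a2, part of this difference restates that choice and carries no test. The change of Snhg1 was 1.42 (SE 0.16, limma adjusted p = 0.00347) and was called higher. Snhg1 was named with earlier results of these data known, so its call is not an independent test. Left with 1 AZ20 library, it was not called (limma adjusted p = 0.145 without AZ20 replicate 1 and 0.143 without AZ20 replicate 2).

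None of the other expressed genes nearby was called. The nearest gene on the other side, Chrm1, lies 23275 bases away and was at 0 in all 4 libraries. Among the 15 other expressed genes within 150 kb, limma called 0 higher and 0 lower, where 2.28% and 0.0485% of all expressed genes were called. Changes of the 15 ran from -0.28 (Wdr74, limma adjusted p = 0.752) to 0.56 (Ttc9c, limma adjusted p = 0.684, the lowest of the 15). Wdr74, which had 101 and 120.2 TPM in Ctrl and 95.1 and 86.8 TPM in AZ20, is the nearest of these beyond Snhg1 and the small nucleolar RNA gene Snord22 that lies inside it. At an unadjusted p under 0.05, 0 of the 15 were higher and 0 lower, where 8.03% and 1.13% of all expressed genes were. The limma fit with the replicate block also called 0, where it called 4.11% of expressed genes higher and 0.223% lower. Voom on the recovered reads called 0 too, against 2.17% and 0.00969%. With such shares, 0 calls among 15 genes do not set these genes apart from others.

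**Figure D5:**
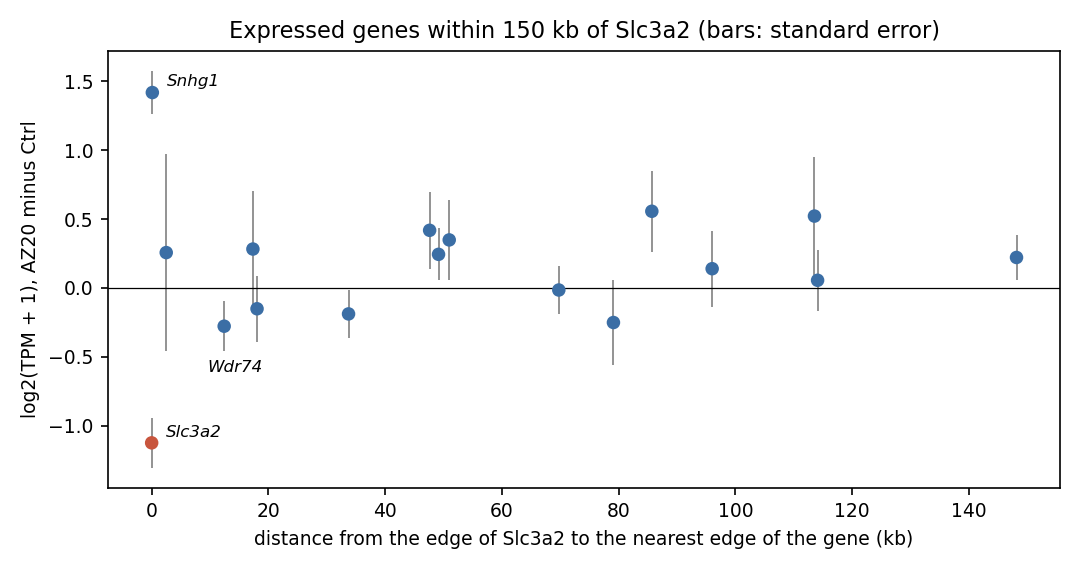
Change of log2(TPM + 1), AZ20 minus Ctrl, with the standard error of the limma fit, for Slc3a2 (red) and the expressed genes within 150 kb (blue), against the distance in kb from the edge of Slc3a2 to the nearest edge of each gene. Slc3a2 at -1.12 and Snhg1 at 1.42 stand apart at the left, and the others lie between -0.28 and 0.56.

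The 5 expressed genes whose profile over the 4 libraries was closest to that of Slc3a2 were Eif4ebp1, Gstk1, Nudt7, Gpatch4 and 2410141K09Rik. Closeness was the root mean square distance between log2(TPM + 1) values centred on each gene's own mean, and it was 0.0844 for Eif4ebp1, 0.118 for Gstk1, 0.119 for Nudt7, 0.135 for Gpatch4 and 0.143 for 2410141K09Rik, against a median of 0.641 over all expressed genes. Eif4ebp1, which encodes a repressor of cap-dependent translation, had 9.40 and 8.84 TPM in Ctrl and 3.23 and 4.27 TPM in AZ20. Gstk1, a mitochondrial and peroxisomal glutathione transferase gene, had 1.81 and 1.21 TPM in Ctrl and was listed at 0 in both AZ20 libraries. Nudt7, which encodes a peroxisomal coenzyme A hydrolase, had 2.37 and 2.31 TPM in Ctrl and 0.759 and 0.701 TPM in AZ20. Gpatch4 had 8.24 and 5.54 TPM in Ctrl and 2.92 and 2.85 TPM in AZ20, and 2410141K09Rik had 6.74 and 5.55 TPM in Ctrl and 2.94 and 2.96 TPM in AZ20. All 5 lie far below Slc3a2 in level, and with 4 libraries a like profile is a description of these libraries only. They were picked as the closest of all expressed genes, so their short distances and lower AZ20 levels follow from the ranking and carry no test. Gstk1 and Nudt7 passed the filter only through their Ctrl means, so their place among the lower genes is also tied to the filter. Since log2(TPM + 1) compresses low values, a like profile is not a like fold difference in TPM, least of all for Gstk1 and Nudt7.

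The libraries bore the markers of the labelled cell type. The summed TPM of 9 pachytene markers such as Sycp3, Hormad1 and Ldhc was 11040 and 11022 in Ctrl and 11290 and 11306 in AZ20, with 0 of the 9 at 0. Sertoli cell markers summed to 0.0529 to 0.892 TPM in Ctrl and 0.930 to 1.05 TPM in AZ20 over 9 genes, with Sox9, Wt1 and Fshr at 0 in all libraries. Macrophage markers summed to 1.01 to 1.48 TPM in Ctrl and 2.09 to 2.39 TPM in AZ20 over 7 genes. Leydig cell, myoid and endothelial markers summed to 0.510 to 2.31 TPM in any library, with Cyp11a1, Cyp17a1, Des and Kdr at 0 throughout. The Leydig cell sum was all from Star (0.866 and 2.31 TPM in Ctrl, 1.60 and 2.11 TPM in AZ20). Acta2, of myoid cells, had 0.886 and 0.472 TPM in Ctrl and 0.374 and 1.33 TPM in AZ20. Pecam1, of endothelial cells, had 0.510 and 0.315 TPM in Ctrl and 1.06 and 1.25 TPM in AZ20. The spermatogonial sum over 8 genes was 8.26 and 21.2 TPM in Ctrl and 13.5 and 15.05 TPM in AZ20, nearly all from Uchl1, with Stra8 and Dmrt1 at 0. The markers of round spermatids, 6 genes of which 0 were at 0, summed to 365 and 149 TPM in Ctrl and 771 and 251 TPM in AZ20, higher in AZ20 in each pair, and their part in the differences above was not tested. Of these 6, limma called 0, and 1 (Prm1, a protamine gene of spermatids) was called higher with the replicate block (log2 change 1.11, SE 0.23, limma adjusted p = 0.000766 with the block and 0.615 without it). Sertoli cell, macrophage and endothelial sums were also higher in both AZ20 libraries, and their part was not tested either.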

How the data were processed

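RNA was measured in 4 libraries of cultured pachytene spermatocytes, 2 Ctrl and 2 AZ20, grouped by their labels. The authors trimmed paired reads with Trimmomatic (version 0.39), aligned them to GRCm38 with STAR (version 2.5.4b), kept unique alignments, counted them on the UCSC refGene annotation with featureCounts (version 2.0.1) and deposited TPM values calculated from the counts, 1 column per library. The 92 lines without a gene symbol were left out.

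Whole reads were recovered from the TPM, because every library uses the same length for a given gene. Whole reads (tolerance 1e-05) came out for 16857 of 16857 genes above 0. In a simulation of 2000 genes, 94.0% came back exactly, and 120 came back too low by a whole multiple. For the 10 genes described, a multiple of that kind would need a length beyond the annotated exons. The main test stayed on TPM. Genes with a mean above 1 TPM in either condition (10316) were fitted in limma 3.58.1 (under R 4.3.3) as log2(TPM + 1), with a trend in the variance. Simulated data, in which 200 genes changed, were used to check it. Adjustment was by Benjamini-Hochberg over all genes fitted, and calls needed an adjusted p under 0.05 and a change of 2-fold on the scale of the fit. Python 3.11.15 gave the remaining values (scipy 1.17.1, numpy 2.4.6, pandas 2.3.3). Gene positions and promoters are from RefSeq (GRCm38.p6), and strands and transcript models are from GENCODE.

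Replicate numbers mark cells of the same mouse per the methods. Deviations of same-numbered libraries correlated at 0.229 over 10316 genes. Where the block changes a call, its value is given. Alternatives were pseudocounts of 0.1 and 0.01, no filter and a filter of 5 TPM, quantile normalization, scaling to one median, no trend, the block, leaving out each library, other sums of light chains and motifs on the forward strand only. Voom on the recovered reads was chosen after seeing the data. The members, gene lists, motifs and rules were chosen with earlier results of these data known. The genes named are the 10 described, called carriers, the 3 carriers of each family with the highest mean TPM, the 5 genes of like profile, the nearest genes beside Slc3a2 and Snhg1. Other names (carriers at the ends of a range or whose conditions did not overlap, Wdr74, Ttc9c, Snord22, markers) were added after their values were seen. Protein sequences were not analysed here.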

Additional observations from a re-analysis of the deposited data

How the results depend on the processing

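Of the 9 genes above 0 in some library, the change of Slc3a2, Slc7a1, Slc7a3, Slc7a5, Slc7a6 and Slc38a2 kept its sign under each pseudocount, scaling and left-out library (Slc7a3 was not in the quantile normalization), while Slc7a7, Slc7a11 and Slc1a5 each changed sign without 2 of the libraries in turn (Slc7a7 and Slc1a5 without Ctrl replicate 1 or AZ20 replicate 2, Slc7a11 without Ctrl replicate 2 or AZ20 replicate 2). The change of Slc3a2 was -1.34 with libraries scaled to one median, and -1.22 to -1.03 with a library left out. Scaling to one median shifted the median change of all genes by -0.20 and quantile normalization by -0.14, against which Slc7a5 and Slc7a1 stayed at 0.28 and 0.22 or more. The ratio of Slc3a2 to the light chain sum, AZ20 over Ctrl, was 0.476, and 0.403 to 0.582 with a library left out, the highest without Ctrl replicate 1. With Slc7a5 and Slc7a6 as the only light chains it was 0.478.

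With the replicate block, limma called 424 genes higher and 23 lower in place of 235 and 5, and 1 other carrier (Slc6a14) higher in place of 0. No other call on the carriers or Snhg1 changed with the block. With no filter, 1 gene was called lower. Voom on the recovered reads called 1 lower, and 3 with the replicate block. For Slc3a2 only the change, not the call, is followed through the alternatives, so its call may not hold in each of them. Slc6a14 was called, 1 carrier in place of 0, under no filter, no variance trend, voom, and voom with the replicate block. With a library left out, 0 to 184 genes were called higher and 0 to 1 lower. The 0 came without either AZ20 library, and 184 and 158 were higher without Ctrl replicate 1 and Ctrl replicate 2. The fit then assumes that a lone library varies like the others. On the forward strand only, 0 of the 7 genes held the NF-Y box. The planned comparison of protein sequences was not run. Genes under about 24 reads per condition (Slc7a3, Slc7a11, Slc1a5) are limited by depth.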
